A study of Homo sapiens with 49 samples.

Results

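The EGR and NR4A families and 4 further genes of the early response were followed through 2 neuroblastoma time courses: EGR1, EGR2, EGR3, NR4A1, NR4A2, NR4A3, IER2, IER3, SRF and MCL1. They were taken by symbol, 10 of the 23621 genes measured. SHEP-21N is a human neuroblastoma line with TET-off MYCN, in which MYCN is switched off by doxycycline at 0.2 µg/ml. Libraries were made from 2, 4, 6, 8, 16 and 24 h with doxycycline (3 each) and from 0 h (2). BE(2)-C is a human neuroblastoma line engineered with a TET-on hairpin against TWIST1, shTWIST1, induced with doxycycline (0.5 µg/ml), with 3 libraries each at 3, 6, 12, 24 and 48 h and 3 without doxycycline. All cells of a model carry its construct, and no cells given doxycycline without the construct were analysed here. No label says that replicates were separate cultures, so p-values measure the spread between these libraries, which may be technical.

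Immediate early genes are transcribed within minutes of a growth factor, stress or neuronal signal, without new protein synthesis. EGR proteins are zinc finger factors that bind GC-rich sites, and NR4A proteins are orphan nuclear receptors that act without a known natural ligand. SRF, serum response factor, binds the CArG box in the promoters of many of these genes together with ternary complex factors that the ERK kinases phosphorylate. IER2 is a short-lived nuclear protein, IER3 a regulator of survival under stress, and MCL1 a short-lived relative of BCL2 that protects cells from apoptosis.

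Some of the members' promoters hold a CArG box. RefSeq promoter windows (GRCh38.p14, 300 bases around each start) matched 6 of the 10 genes: EGR1, EGR2, NR4A1, NR4A3, IER2 and SRF. The expression tables use hg19, so these coordinates belong to the sequences alone. EGR1 and SRF are printed because both are expressed in both models and hold 2 CArG boxes each, and the third EGR2 start because it holds 1 while the gene was close to 0 throughout. Capitals mark the CArG boxes, 5′ to 3′.
EGR1 chr5:138465229-138465528 (plus strand): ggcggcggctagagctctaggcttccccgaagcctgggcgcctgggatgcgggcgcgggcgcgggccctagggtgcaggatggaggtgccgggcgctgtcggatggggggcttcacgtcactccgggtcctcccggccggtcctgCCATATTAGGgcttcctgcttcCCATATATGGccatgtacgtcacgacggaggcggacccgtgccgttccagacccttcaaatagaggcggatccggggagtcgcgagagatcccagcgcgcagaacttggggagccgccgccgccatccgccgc
SRF chr6:43171019-43171318 (plus strand): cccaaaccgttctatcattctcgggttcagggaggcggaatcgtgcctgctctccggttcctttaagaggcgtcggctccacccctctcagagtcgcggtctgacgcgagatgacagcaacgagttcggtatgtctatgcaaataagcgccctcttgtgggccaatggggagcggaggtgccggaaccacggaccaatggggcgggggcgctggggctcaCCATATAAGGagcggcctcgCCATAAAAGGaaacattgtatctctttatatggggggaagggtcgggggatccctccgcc
EGR2 chr10:62816317-62816616 (minus strand): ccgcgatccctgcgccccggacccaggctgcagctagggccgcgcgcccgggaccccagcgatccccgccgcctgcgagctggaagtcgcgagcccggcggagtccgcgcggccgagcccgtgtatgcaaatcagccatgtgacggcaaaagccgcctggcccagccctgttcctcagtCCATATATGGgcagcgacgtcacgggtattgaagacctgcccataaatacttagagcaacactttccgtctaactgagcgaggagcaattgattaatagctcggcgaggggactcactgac
The boxes begin at -105 and -83 from the EGR1 start, at -30 and -10 from the SRF start and at -71 from the EGR2 start. The second box of EGR1 and the box of EGR2 have the same letters. A CArG box stood in 1.30% of 34796 promoter windows. CACGTG, the E-box that MYC family proteins bind, was found at -30 in the second EGR2 window and in 7.20% of all windows. TGACGTCA (1.84% of windows), the cAMP response element, and GCGTGGGCG (0.793%), the EGR site, were in none of the members' windows, and TATAAA (11.6%) was at 15 in the SRF window. None of the 5 was in the windows of NR4A1, NR4A3 and IER2. Both strands were searched and no 2 matches overlapped. A match is a description of the letters, not evidence of binding.

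Values are FPKM, fragments per kilobase of transcript scaled to the fragments mapped, in 2 deposited versions: unnormalised, and rescaled to ERCC spike-in RNA added at lysis. The rescaled values are used unless unnormalised is stated. In these bulk samples less RNA per cell cannot be told apart from fewer cells behind a given amount of spike-in, nor fewer cells of a type from less RNA per cell. A gene was tested where its mean unnormalised level reached 1 FPKM, which 6 of the 10 members did in both models, and was called where limma gave an adjusted p under 0.05 over all genes tested (11867 in SHEP-21N, 11433 in BE(2)-C). MYCN averaged 14.1 ± 3.05 FPKM at 24 h and 789 ± 93.4 FPKM at 0 h in SHEP-21N cells (SD, n = 3 and 2). TWIST1 averaged 7.81 ± 3.30 FPKM at 48 h and 81.4 ± 10.8 FPKM without doxycycline in BE(2)-C cells (SD, n = 3 each), and 18.1 ± 0.684 against 64.9 ± 8.69 on unnormalised values. SHEP-21N libraries held all 8 mesenchymal markers at a mean of 1 FPKM or more but only HAND2 and ISL1 of 8 adrenergic ones, with PHOX2A and TH at or near 0. BE(2)-C libraries held 8 of 8 adrenergic and 3 of 8 mesenchymal markers. Of 5 markers each for blood, epithelial and glial cells, SHEP-21N libraries had none at 1 FPKM and BE(2)-C libraries had 1 each: HBB, which reached 38.4 FPKM in one library and was otherwise low, KRT19 and S100B.

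Levels per length put MCL1 first in both models, and the EGR and NR4A families were represented almost entirely by EGR1 and NR4A1. Mean unnormalised levels over the 20 SHEP-21N libraries were 69.3 FPKM for MCL1, 25.0 for SRF, 17.8 for IER2, 6.20 for NR4A1, 2.17 for EGR1 and 1.93 for IER3. Ranges over the libraries overlapped for SRF (17.7 to 34.8 FPKM) and IER2 (12.4 to 23.8), and for NR4A1 (3.52 to 9.10) and EGR1 (0.793 to 4.46). Within each library, however, SRF stood above IER2 and NR4A1 above EGR1. The ranges of EGR1 and IER3 (0.750 to 3.81) overlapped too. Over the 18 BE(2)-C libraries the means were 75.7 FPKM for MCL1, 31.5 for IER2, 14.6 for SRF, 5.23 for NR4A1, 4.49 for EGR1 and 1.83 for IER3. Here MCL1 (67.5 to 80.7 FPKM), IER2 (22.2 to 55.2) and SRF (13.1 to 15.5) stood apart from one another, while NR4A1 (4.49 to 7.03) lay within the range of EGR1 (2.21 to 9.48).

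EGR2, EGR3, NR4A2 and NR4A3, the other 4 members, stayed under 1 FPKM unnormalised in every library of both models. EGR2, a factor of Schwann cell myelination and hindbrain patterning, was listed at 0 in 12 of 20 SHEP-21N libraries and reached 0.0266 FPKM. In BE(2)-C cells it was listed at 0 in 7 of 18 libraries and reached 0.0504 FPKM. EGR3, which acts in muscle spindle and T cell development, ran from 0.0550 to 0.306 FPKM in SHEP-21N libraries and from 0 to 0.143 FPKM in BE(2)-C libraries. NR4A2, a factor needed for midbrain dopamine neurons, ran from 0.0731 to 0.278 FPKM in SHEP-21N and from 0.397 to 0.706 FPKM in BE(2)-C libraries. NR4A3 ran from 0.01 to 0.125 FPKM in SHEP-21N and from 0.0996 to 0.196 FPKM in BE(2)-C libraries. Of these 4, NR4A2 in BE(2)-C cells came closest to the minimum. Its unnormalised values at 48 h all lay above those without doxycycline, a difference that was not tested. Its rescaled values went the other way, at 0.303, 0.390 and 0.511 FPKM at 48 h against 0.551, 0.710 and 0.744 without doxycycline. That fall was not called (limma without the minimum, adjusted p = 0.0593). The rescaled tables show EGR2 at 0.0884 FPKM or more even where it was listed at 0 unnormalised, so rescaled values near 0.1 are not evidence of expression. Without the minimum on level, limma called none of the 4 in 8 SHEP-21N comparisons of 2 times (1 of 32 values at an unadjusted p under 0.05; lowest adjusted p = 0.151). In 7 BE(2)-C comparisons it called 2 of 28, both NR4A3 at 48 h: -0.14 on the log2 scale against no doxycycline (adjusted p = 0.0224) and -0.13 against 24 h (adjusted p = 0.0336), where 76.6% and 61.4% of all genes were lower. Its F test over the course called EGR3 in SHEP-21N cells (adjusted p = 0.0135), as 20.3% of genes, and NR4A2 and NR4A3 in BE(2)-C cells (adjusted p = 0.0340 and 0.0265), as 71.9% of genes.

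**Figure D1:**
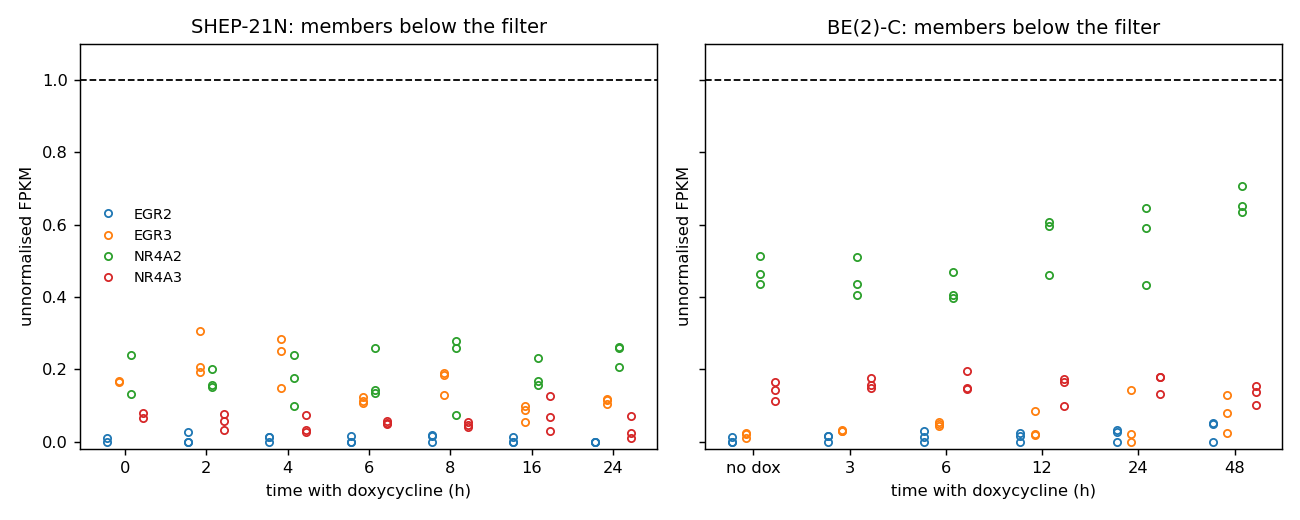
Unnormalised FPKM (vertical axis) of EGR2, EGR3, NR4A2 and NR4A3 in each library (circles) by time with doxycycline in hours (horizontal axis, times equally spaced) in SHEP-21N (left) and BE(2)-C cells (right); the dashed line is the minimum mean of 1 FPKM for testing. All points lie under the line, the highest at 0.706 FPKM for NR4A2 in BE(2)-C cells.

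EGR1 RNA stood lower within hours of switching MYCN off, came close to its 0 h level at 16 h and was low again at 24 h. With doxycycline it was at 2.04, 2.06 and 2.90 FPKM at 2 h, at 1.59, 1.99 and 3.05 at 4 h, and at 1.19, 1.56 and 1.57 at 6 h, against 4.27 and 5.22 FPKM at 0 h. All libraries from 2 to 6 h lay under both 0 h libraries. It then stood at 1.62, 1.78 and 1.84 FPKM at 8 h, 3.64, 3.97 and 4.27 at 16 h, and 0.916, 1.12 and 1.33 at 24 h. The 16 h libraries lay above all libraries of the other times with doxycycline, and the 24 h libraries were at the bottom of the course with 1 library of 6 h among them. The log2 fold change against 0 h was -0.79 at 2 h (SE 0.170, adjusted p = 0.254), -0.86 at 4 h (adjusted p = 0.0535) and -1.23 at 6 h (SE 0.170, adjusted p = 0.000618). It was -1.06 at 8 h (adjusted p = 0.00246), -0.21 at 16 h (adjusted p = 0.476) and -1.44 at 24 h (SE 0.170, adjusted p = 3.76e-05). The 2 h value passed on unnormalised FPKM (-0.75, adjusted p = 0.0265), but not without either 0 h library or without 1 of 2 libraries of 2 h (adjusted p up to 0.295). The 8 h call was lost without 1 library of 0 h (adjusted p = 0.0807).

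NR4A1, also called NUR77, went down in steps and showed no return at 16 h. It was at 8.33, 8.74 and 11.2 FPKM at 2 h, which overlapped the 0 h libraries at 9.59 and 9.90 FPKM, and at 6.77, 7.26 and 8.84 at 4 h. It stood at 5.31, 6.00 and 6.08 FPKM at 6 h and 5.53, 6.17 and 6.50 at 8 h. It was at 4.32, 4.68 and 6.64 FPKM at 16 h and 2.78, 3.34 and 3.85 at 24 h. All libraries from 4 h on lay under both 0 h libraries. The log2 fold change against 0 h was -0.66 at 6 h (SE 0.163, adjusted p = 0.0190), -0.61 at 8 h (adjusted p = 0.0313), -0.81 at 16 h (adjusted p = 0.00681) and -1.32 at 24 h (SE 0.163, adjusted p = 5.19e-05). The calls at 6, 8 and 16 h were lost without either 0 h library (adjusted p up to 0.320). The 6 h call was lost also without 1 library of 6 h, and the 8 h call without any one library of 8 h. On unnormalised values all 3 passed with each library left out.

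SRF, the factor behind the CArG box, was also lower late in the course, with a plateau between 6 and 16 h. It was at 31.8, 33.0 and 39.1 FPKM at 2 h, against 33.6 and 40.4 FPKM at 0 h, and at 25.1, 28.0 and 37.1 at 4 h. From 6 to 16 h its 9 libraries ran from 19.0 to 30.0 FPKM, and at 24 h they stood at 12.8, 16.9 and 20.8 FPKM. The 24 h libraries lay under both 0 h libraries, and 1 of them lay within the range of the plateau. The log2 fold change against 0 h was -0.78 at 6 h (SE 0.212, adjusted p = 0.0275) and -1.11 at 24 h (SE 0.212, adjusted p = 0.00110). At 8 and 16 h it was -0.65 (adjusted p = 0.0632) and -0.59 (adjusted p = 0.0857), and both passed on unnormalised values (-0.62 and -0.57; adjusted p = 2.93e-06 and 5.24e-06). The 6 h call was lost without either 0 h library or 1 of 2 libraries of 6 h (adjusted p up to 0.395).

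**Figure D2:**
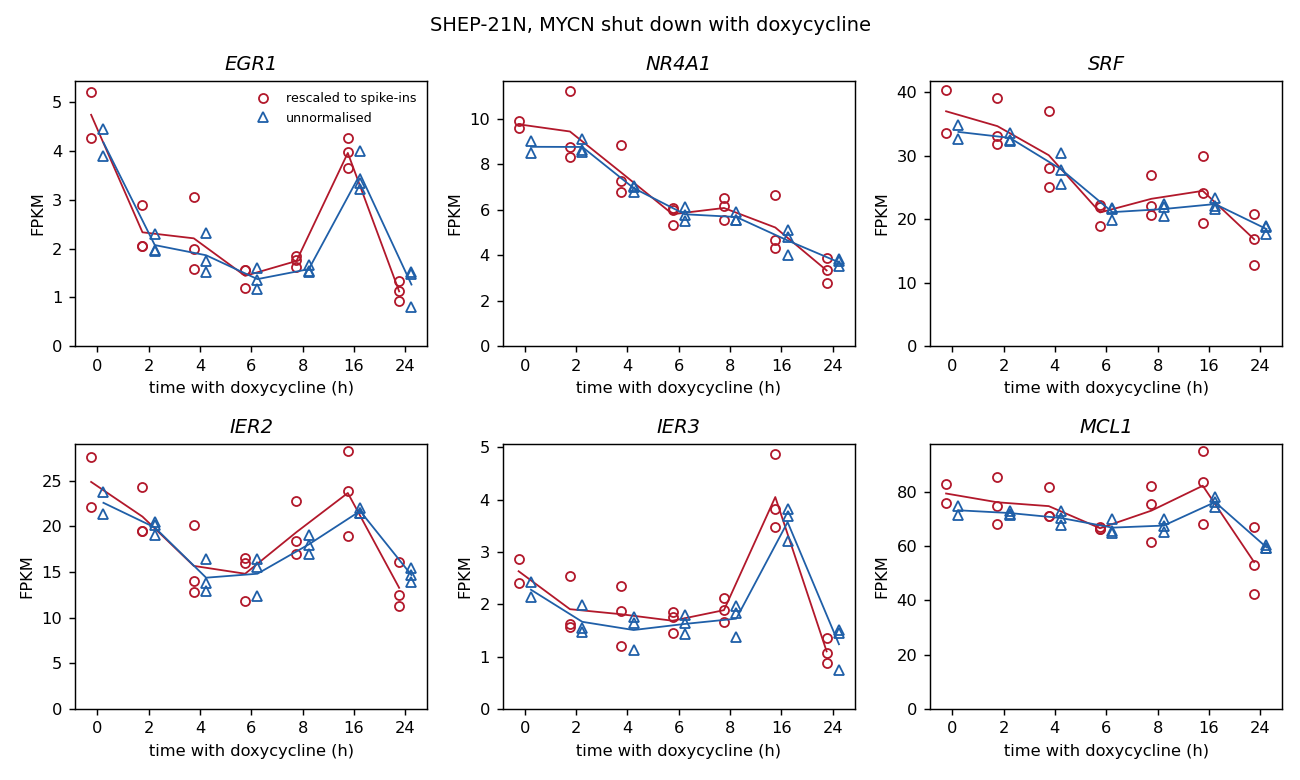
FPKM (vertical axes, from 0) of the 6 tested members in each SHEP-21N library by time with doxycycline in hours (horizontal axis, times equally spaced); red circles are values rescaled to spike-ins, blue triangles unnormalised values, and lines join the group means (n = 2 at 0 h, 3 at other times). EGR1 and IER3 stand high at 16 h between low values at 8 and 24 h, and NR4A1 steps down to 2.78 to 3.85 FPKM at 24 h.

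IER2 and IER3 were both lower at 24 h than at 0 h, and before that IER2 was lower at 6 h while no earlier time passed for IER3. IER2 was at 12.8, 14.0 and 20.2 FPKM at 4 h and 11.9, 16.0 and 16.5 at 6 h, all under the 0 h libraries at 22.1 and 27.7 FPKM. At 16 h its libraries at 18.9, 23.9 and 28.2 FPKM overlapped the 0 h libraries, and at 24 h they stood below them, at 11.2, 12.5 and 16.1. Its log2 fold change against 0 h was -0.72 at 6 h (SE 0.217, adjusted p = 0.0433) and -0.87 at 24 h (SE 0.217, adjusted p = 0.00619). IER3 was at 1.65, 1.89 and 2.12 FPKM at 8 h, at 3.47, 3.82 and 4.86 at 16 h and at 0.870, 1.07 and 1.35 at 24 h, against 2.40 and 2.86 FPKM at 0 h. The 16 h libraries lay above both 0 h libraries and those of 8 and 24 h below them, although neither 6 h (-0.44, adjusted p = 0.123) nor 8 h (-0.33, adjusted p = 0.268) passed. Against 0 h the log2 fold change of IER3 was 0.47 at 16 h (SE 0.184, adjusted p = 0.116) and -0.79 at 24 h (adjusted p = 0.00380). On unnormalised values IER3 rose at 16 h (0.48, adjusted p = 0.0175), a call lost without either 0 h library or 1 library of 16 h (adjusted p up to 0.0988). The 24 h calls of IER2 and IER3 were lost without 1 library of 0 h (adjusted p = 0.116 and 0.0745), and the 6 h call of IER2 in 10 of 20 fits that left out a library.

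MCL1 moved least of the 6 in the comparison of 24 h with 0 h. It was at 42.5, 53.0 and 67.0 FPKM at 24 h, under both 0 h libraries at 76.1 and 82.9 FPKM, and its 15 libraries of 2 to 16 h ran from 61.4 to 95.2 FPKM, on both sides of the 0 h values. At 24 h it differed by -0.57 on the log2 scale (SE 0.193, adjusted p = 0.0280), lost without either 0 h library or 1 of 2 libraries of 24 h (adjusted p up to 0.202). On unnormalised values its libraries stood at 59.2, 59.4 and 60.4 FPKM at 24 h, against 71.7 and 74.9 FPKM at 0 h, and the fall of 0.29 on the log2 scale passed with each library left out (adjusted p = 3.62e-05).

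Set against all tested genes, the 6 members were called in a larger share than genes at large at 6 and 24 h with doxycycline, a comparison of shares with no test. No member was called at 2 h, where 0.0506% of genes were (1 member, EGR1, had an unadjusted p under 0.05 in limma), nor at 4 h, where 0.0843% were (3 members, EGR1, IER2 and IER3). At 6 h 4 of 6 were lower, EGR1, NR4A1, SRF and IER2, against 7.54% of genes. At 8 h 2 were lower, EGR1 and NR4A1 (3.83% of genes lower), and at 16 h NR4A1 alone (3.04% of genes lower). At 24 h all 6 were lower, against 32.4% of genes. The median of all genes shifted by -0.31 at 24 h, and relative to it the members stood at -1.13 for EGR1, -1.01 for NR4A1, -0.80 for SRF, -0.56 for IER2, -0.49 for IER3 and -0.26 for MCL1. On unnormalised values, where the median shift was -0.04, the same 6 were lower at 24 h (36.4% of genes). On that scale 1 member was lower at 2 h (0.345% of genes) and 4 at 4 h, EGR1, IER2, NR4A1 and SRF (18.1%). It was 5 at 6 h (29.8%) and 5 at 8 h (29.2%), while at 16 h NR4A1 and SRF were lower and IER3 higher (51.2% of genes called in either direction). MCL1 was among the lower members at 6 and 8 h, its call lost in 3 and 6 of 20 fits that left out a library (adjusted p up to 0.146 and 0.223); that of IER2 at 8 h was lost in 2 (0.184) and that of SRF at 4 h in 1 (0.138). Over the whole course limma's F test called 5 of 6 members, all but MCL1 (adjusted p = 0.0990), with 31.0% of genes called, and on unnormalised values 6 of 6, with 81.9%. All comparisons with 0 h share its 2 libraries.

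**Figure D3:**
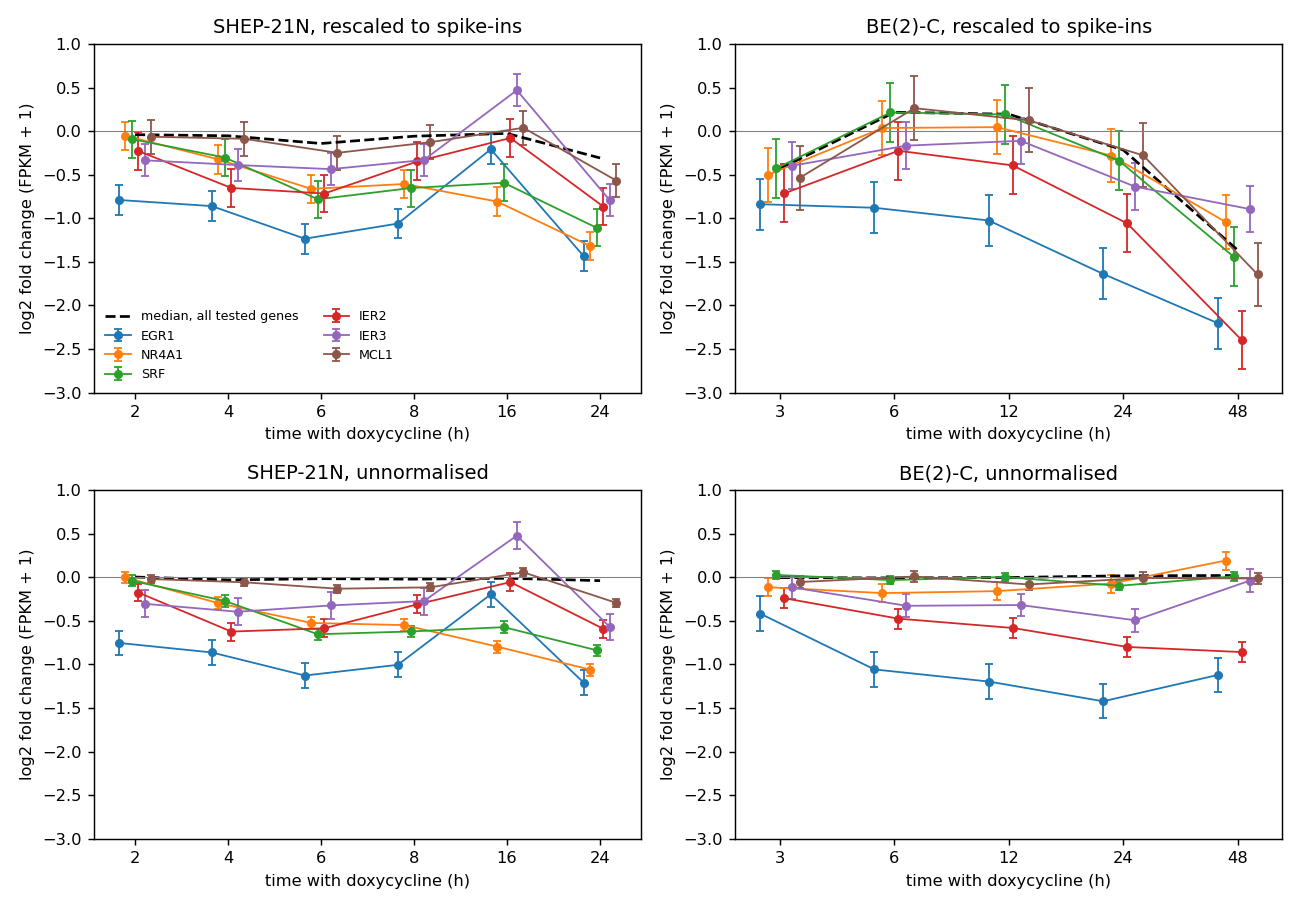
Log2 fold change after adding 1 FPKM (vertical axis) against 0 h or no doxycycline, with its standard error, for the 6 tested members by time with doxycycline in hours (horizontal axis, times equally spaced), on rescaled (top) and unnormalised values (bottom) in SHEP-21N (left) and BE(2)-C cells (right); the dashed line is the median of all tested genes. In SHEP-21N cells the 6 lie below the dashed line at 24 h, and in BE(2)-C cells the dashed line itself drops to -1.36 at 48 h on rescaled values and to no such level on unnormalised ones.

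Between neighbouring times EGR1 and IER3 rose at 16 h against 8 h and fell at 24 h against 16 h. EGR1 rose by 0.85 on the log2 scale at 16 h over 8 h (SE 0.152, adjusted p = 0.00406; unnormalised 0.81, adjusted p = 0.000196), with no overlap of libraries. IER3 rose by 0.80 (SE 0.164, adjusted p = 0.0107; unnormalised 0.75, adjusted p = 0.000754), lost on rescaled values without 1 library of 8 h or 1 of 16 h (adjusted p up to 0.0790). These 2 of 6 members were called as higher against 2.01% of genes. NR4A1 had a log2 difference of -0.20 in the same comparison (adjusted p = 0.721), and fell on unnormalised values (-0.25, adjusted p = 0.00626), where 28.3% of genes and 5 of 6 members were called, EGR1, IER2, IER3 and MCL1 higher. The IER2 call there (0.26, adjusted p = 0.0485) was lost in 16 of 20 fits that left out a library. At 24 h against 16 h EGR1 fell by 1.23 (SE 0.152, adjusted p = 0.000119) and IER3 by 1.26 (SE 0.164, adjusted p = 0.000192). IER2 (-0.79, adjusted p = 0.0220), MCL1 (-0.61, adjusted p = 0.0400) and NR4A1 (-0.51, adjusted p = 0.0404) fell too, so that 5 of 6 were lower against 7.63% of genes, where the median of all genes stood at -0.27. On unnormalised values all 6 fell (18.6% of genes lower). The calls of MCL1 and NR4A1 were each lost in 12 of 20 fits that left out a library, and that of IER2 in 4. Index sequences of the 8, 16 and 24 h libraries were reused from 0, 2 and 4 h and no label names the sequencing pools, so that pool and time cannot be told apart, and libraries of 8, 16 and 24 h share no index with one another. The summed level of the 8 mesenchymal markers (unnormalised) was 1199.6 to 1271 FPKM at 0 h, 1468 to 1575 at 8 h, 1970.1 to 2078 at 16 h and 2067 to 2202 at 24 h. Most of that difference lay in LGALS1, at 488 to 526 FPKM at 0 h, 745 to 831 at 8 h, 1142 to 1254 at 16 h and 1257 to 1407 at 24 h, while the other 7 summed to 712 to 745 FPKM at 0 h, 723 to 744 at 8 h, 819 to 828 at 16 h and 795 to 838 at 24 h. The part of these markers in these results was not tested.

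In BE(2)-C cells EGR1 and IER2 were lower after induction of the TWIST1 hairpin on both scales at 48 h. EGR1 was at 4.84, 5.31 and 5.93 FPKM at 3 h, at 3.34, 5.96 and 6.75 at 6 h and at 3.54, 4.53 and 5.87 at 12 h, against 7.55, 9.92 and 14.6 FPKM without doxycycline. It stood at 2.11, 2.79 and 3.09 FPKM at 24 h and 1.17, 1.51 and 1.75 at 48 h. All 15 libraries with doxycycline lay under the 3 without on this scale. On unnormalised values the 3 h libraries, at 4.36, 5.39 and 8.89 FPKM, overlapped the untreated ones (-0.42, adjusted p = 0.681). EGR1 differed by -1.64 on the log2 scale at 24 h (SE 0.293, adjusted p = 0.00253; unnormalised -1.42, adjusted p = 9.2e-05) and -2.20 at 48 h (SE 0.293, adjusted p = 1.62e-06). Unnormalised EGR1 was at 2.21, 2.52 and 2.69 FPKM at 24 h and 2.51, 3.42 and 4.04 at 48 h, against 7.37, 8.16 and 9.48 FPKM without doxycycline. On that scale the log2 fold change against no doxycycline was -1.12 at 48 h (SE 0.196, adjusted p = 0.000361), with EGR1 also lower at 6 h (-1.06, adjusted p = 0.0230) and 12 h (-1.20, adjusted p = 0.00194). The 6 h call was lost without 1 library of no doxycycline or 1 of 2 libraries of 6 h (adjusted p up to 0.167).

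IER2 was at 22.9, 24.7 and 29.9 FPKM at 24 h and 6.67, 9.23 and 14.0 at 48 h, against 50.1, 52.0 and 62.3 FPKM without doxycycline. No library of 24 or 48 h reached those without doxycycline. IER2 differed by -1.06 on the log2 scale at 24 h (adjusted p = 0.214) and -2.40 at 48 h (SE 0.333, adjusted p = 2.96e-06). Unnormalised IER2 was at 22.2, 22.8 and 25.8 FPKM at 48 h, against 37.8, 39.3 and 55.2 FPKM without doxycycline. On that scale it fell by 0.58 at 12 h (adjusted p = 0.00793), by 0.80 at 24 h (adjusted p = 0.000126) and by 0.86 at 48 h (SE 0.114, adjusted p = 2.92e-05). The library at 55.2 FPKM, numbered 1, stood apart from its group, and without it the values were -0.41, -0.63 and -0.69 (adjusted p = 0.00286, 1.8e-05 and 3.66e-06). The 8 mesenchymal markers (unnormalised) summed to 500.4 to 514 FPKM at 48 h and 609 to 1130.1 FPKM without doxycycline. Among them LGALS1 was at 402 to 410.0 FPKM at 48 h and 533 to 1033 FPKM without doxycycline, and the other 7 summed to 95.2 to 104 FPKM and 76.4 to 97.2 FPKM. The part of these markers in the results was not tested.

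IER3 was lower at 24 h on unnormalised values and stood within the range of the untreated libraries at 48 h. Its unnormalised libraries were at 1.17, 1.31 and 1.46 FPKM at 24 h and 2.00, 2.19 and 2.30 at 48 h, against 1.49, 2.39 and 3.06 FPKM without doxycycline. On that scale the difference was -0.49 at 24 h (log2, SE 0.131, adjusted p = 0.0132), and at 48 h it was -0.04 (SE 0.131, adjusted p = 0.838). Rescaled IER3 was at 0.696, 1.07 and 1.43 FPKM at 48 h, against 2.30, 2.95 and 3.19 FPKM without doxycycline (-0.89, SE 0.267, adjusted p = 0.00301). The 24 h call was lost without 1 library of 24 h (adjusted p = 0.0552). Unnormalised IER3 differed by 0.45 at 48 h against 24 h (adjusted p = 0.0785), which passed without either of 2 libraries of no doxycycline (adjusted p = 0.00586 and 0.0140).

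**Figure D4:**
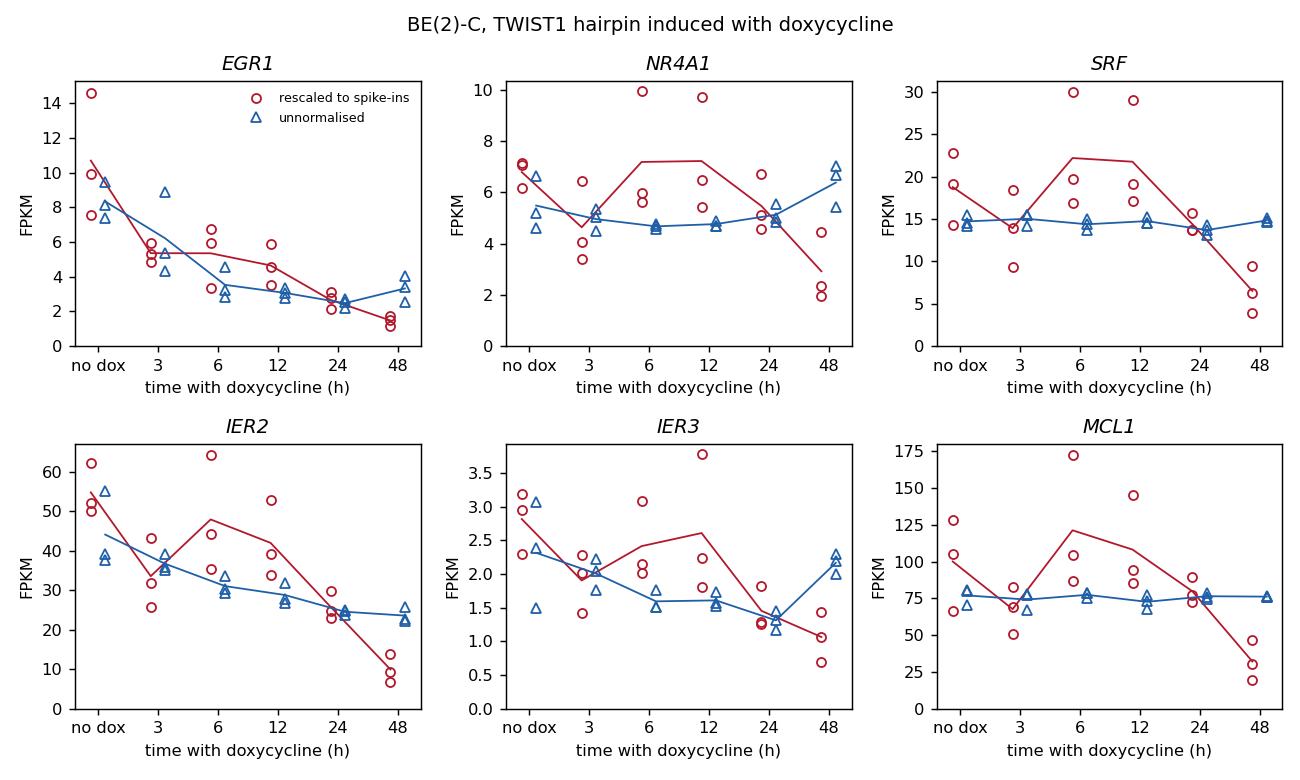
FPKM (vertical axes, from 0) of the 6 tested members in each BE(2)-C library by time with doxycycline in hours (horizontal axis, times equally spaced); red circles are values rescaled to spike-ins, blue triangles unnormalised values, and lines join the group means (n = 3 at each time). EGR1 and IER2 are lower at 24 and 48 h on both scales, while unnormalised SRF stays between 13.1 and 15.5 FPKM and unnormalised MCL1 between 67.5 and 80.7 FPKM.

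NR4A1, SRF and MCL1 were lower at 48 h on the rescaled scale, on which nearly all genes were. NR4A1 was at 1.96, 2.34 and 4.46 FPKM at 48 h, against 6.18, 7.06 and 7.13 FPKM without doxycycline (-1.04, SE 0.309, adjusted p = 0.00286). SRF was at 3.91, 6.22 and 9.40 FPKM, against 14.3, 19.2 and 22.8 FPKM (-1.44, SE 0.337, adjusted p = 0.000414). MCL1 was at 19.4, 30.2 and 46.9 FPKM, against 66.7, 105 and 128 FPKM (-1.64, SE 0.366, adjusted p = 0.000272). The groups of these 3 genes did not overlap on this scale. Neither did the library medians of all tested genes (log2, 2.09 to 3.15 at 48 h and 3.57 to 4.37 without doxycycline). The groups of the 3 genes did overlap on unnormalised values. There SRF was at 14.6, 14.8 and 15.1 FPKM at 48 h and 14.2, 14.5 and 15.4 without doxycycline (0.01, SE 0.0501, adjusted p = 0.872), and MCL1 at 76.1, 76.2 and 76.4 FPKM and 70.5, 80.1 and 80.7 (-0.01, SE 0.0646, adjusted p = 0.895). Unnormalised NR4A1 was at 5.44, 6.68 and 7.03 FPKM at 48 h, against 4.60, 5.21 and 6.65 FPKM without doxycycline. Its log2 fold change was 0.19 (SE 0.103, adjusted p = 0.153), and it passed as higher (0.32, adjusted p = 0.00613) without the untreated library numbered 1. Leaving out 1 library of 48 h also brought it just under the threshold.

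The counts in BE(2)-C cells depended on the scale. On rescaled values limma called no member at 3 h (0.0350% of genes called; EGR1 and IER2 had an unadjusted p under 0.05), none at 6 h (0.0350%) or 12 h (0.0437%; EGR1 at both), 1 at 24 h (EGR1, lower, as 0.586% of genes) and 6 of 6 at 48 h, all lower, when 93.3% of genes were lower. The median of all genes stood at -0.43 at 3 h, 0.22 at 6 h, 0.19 at 12 h, -0.22 at 24 h and -1.36 at 48 h. Relative to it the members stood at -1.03 for IER2, -0.84 for EGR1, -0.28 for MCL1, -0.08 for SRF, 0.32 for NR4A1 and 0.47 for IER3, with low genes compressed by the added 1 FPKM. On unnormalised values 0 (0.0175% of genes; none at an unadjusted p under 0.05), 1 (0.472%), 2 (3.33%), 3 (13.6%) and 2 members (21.3%) were called at 3, 6, 12, 24 and 48 h, all lower, and the percentages from 6 h on are of genes lower. Between 24 h and 12 h no member was called on either scale (0.0437% and 8.88% of genes; at an unadjusted p under 0.05 only EGR1, rescaled). At 48 h against 24 h 4 were lower on rescaled values, IER2, MCL1, NR4A1 and SRF, with 92.3% of genes lower. None was called on unnormalised values, where 3.18% of genes were and IER3, NR4A1 and SRF had an unadjusted p under 0.05. The F test over the course called 6 of 6 members rescaled (96.0% of genes) and EGR1, IER2 and IER3 unnormalised (32.8%). Spike-in totals on unnormalised values were 57913 to 140361 FPKM at 48 h and 21429 to 36863 FPKM without doxycycline. Median log2 rescaled levels of the libraries were 2.09, 2.60 and 3.15 at 48 h and 3.57, 4.16 and 4.37 without doxycycline.

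Most of the other immediate early genes that were tested were lower in SHEP-21N cells after 6 and 24 h, and some were higher at 16 h than at 8 h. Of 34 in the list 28 were tested. At 24 h 21 were lower than at 0 h and none higher, beside 32.4% of all genes lower. The list median was -0.83 beside -0.31 for all genes. On unnormalised values 21 were lower and 1 higher, beside 36.4% of all genes lower and 3430 of 11867 higher (median -0.63 beside -0.04). FOSL1, an AP-1 subunit, averaged 27.8 ± 5.36 FPKM at 24 h and 129 ± 16.6 FPKM at 0 h (-2.18, adjusted p = 1.83e-05), and KLF2, a zinc finger factor, fell by 1.69 (adjusted p = 2.63e-05). DUSP4, a phosphatase that inactivates ERK, fell by 1.19 (adjusted p = 3.39e-05) and CTGF, a matricellular protein, by 1.51 (adjusted p = 9.64e-05). At 6 h 15 of 28 were lower and none higher (7.54% of all genes lower). At 16 h 2 were higher and 2 lower, beside 609 of 11867 genes higher and 3.04% of all genes lower. At 16 h against 8 h 9 of 28 were higher and none lower, beside 2.01% of all genes higher. The list median was 0.35 beside 0.01 for all genes. On unnormalised values 19 were higher and 3 lower, with 28.3% of all genes called in either direction. At 24 h against 16 h 17 were lower and none higher, beside 7.63% of all genes lower, with a median of -0.73 beside -0.27. At 48 h in BE(2)-C cells 23 of 25 were lower and none higher, near the 93.3% of all genes lower, with a median of -1.37 beside -1.36. On unnormalised values 11 were lower and 5 higher, beside 21.3% of all genes lower and 2067 of 11433 higher. KLF2 fell by 2.43 on the log2 scale there (adjusted p = 5.56e-07; unnormalised -1.37), and ARC, a synaptic protein, by 2.07 (adjusted p = 5.86e-06; unnormalised -0.90). SPRY4, an inhibitor of receptor tyrosine kinase signalling, fell by 2.13 (adjusted p = 2.09e-05; unnormalised -0.68) and SGK1, a kinase, by 1.96 (adjusted p = 3.01e-05; unnormalised -0.60).

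SRF partners and cytoskeletal SRF targets were called about as often as genes at large on rescaled values. In SHEP-21N cells at 24 h 6 of 15 tested were lower and none higher, beside 32.4% of all genes lower. The list median was -0.39 beside -0.31 for all genes. On unnormalised values 7 were lower and 4 higher, beside 36.4% of all genes lower and 3430 of 11867 higher. FHL2, a LIM protein, averaged 15.9 ± 4.15 FPKM at 24 h and 41.4 ± 3.93 FPKM at 0 h (-1.36, adjusted p = 0.000289). ACTA2, smooth muscle actin, fell by 1.39 (adjusted p = 0.000939), ELK1, a ternary complex factor, by 1.04 (adjusted p = 0.00218) and ACTG1, cytoplasmic actin, by 0.85 (adjusted p = 0.0160). At 48 h in BE(2)-C cells 14 of 14 were lower, beside 93.3% of all genes, with a median of -1.50 beside -1.36. On unnormalised values 7 were lower and none higher, beside 21.3% of all genes lower. ACTB, cytoplasmic actin, averaged 1507 ± 8.40 FPKM unnormalised at 48 h and 2394 ± 349.6 FPKM without doxycycline (-0.66, adjusted p = 4.66e-05). CALD1, an actin-binding protein (-0.93, adjusted p = 1.43e-05), and FLNA, filamin (-0.48, adjusted p = 0.000452), were lower on that scale too, and ACTG1 stood at -0.23 (adjusted p = 0.0501).

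EGR corepressors and targets, with the retinoid X receptors that pair with NR4A proteins, gave 2 of 6 lower in SHEP-21N cells at 24 h, near the 32.4% of all genes that were lower (median -0.38 beside -0.31). These were NAB2, a corepressor that binds EGR proteins (-0.64, adjusted p = 0.0219), and TGFB1, an EGR1 target (-0.75, adjusted p = 0.0220), while RXRB stood at -0.43 (adjusted p = 0.0864) and PDGFA at -0.33 (adjusted p = 0.166). BE(2)-C cells at 48 h had 5 of 5 lower, beside 93.3% of all genes (median -1.76 beside -1.36). Unnormalised RXRA (-0.73, adjusted p = 8.57e-08), NAB2 (-0.59, adjusted p = 2.37e-05) and TGFB1 (-0.42, adjusted p = 0.000111) were lower, and NAB1 stood at -0.28 (adjusted p = 0.174).

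Members of the ERK cascade, the kinases and the small GTPase HRAS that activates them, were called both ways in SHEP-21N cells at 24 h. Of 12, 4 were lower, near the 32.4% of all genes, and 1 was higher, beside 731 of all 11867 genes (median -0.21 beside -0.31). On unnormalised values 5 were lower and 6 higher, beside 36.4% of all genes lower and 3430 of 11867 higher. ARAF fell by 0.91 (adjusted p = 0.00503), HRAS by 0.76 (adjusted p = 0.0157) and MAP2K2 by 0.79 (adjusted p = 0.0213), and RPS6KA3, which encodes RSK2, rose by 0.64 (adjusted p = 0.0166). In BE(2)-C cells 12 of 12 were lower at 48 h, beside 93.3% of all genes (median -1.47 beside -1.36). On unnormalised values 2 were lower and 1 higher, beside 21.3% of all genes lower and 2067 of 11433 higher. HRAS was among the lower ones there (-0.68, adjusted p = 0.00295), and MAP2K2 (-0.15, adjusted p = 0.313) and MAPK3 (-0.16, adjusted p = 0.124) did not pass.

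Relatives and partners of MCL1 gave 4 of 10 lower and 1 higher in SHEP-21N cells at 24 h (median -0.36 beside -0.31). Of all genes 32.4% were lower and 731 of 11867 higher. On unnormalised values 4 were lower and 2 higher, beside 36.4% of all genes lower and 3430 of 11867 higher. USP9X, a deubiquitinase known to stabilise MCL1 protein, averaged 18.0 ± 3.01 FPKM at 24 h and 7.88 ± 1.03 FPKM at 0 h (1.09, adjusted p = 0.000911). PMAIP1, the BH3-only protein NOXA that binds MCL1, fell by 1.03 (adjusted p = 0.000400). BAX, a pore-forming effector, fell by 1.12 (adjusted p = 0.00246) and BCL2L1, which encodes BCL-XL, by 0.63 (adjusted p = 0.0351). BE(2)-C cells at 48 h had 10 of 10 lower, beside 93.3% of all genes (median -1.37 beside -1.36). On unnormalised values 1 was lower and 2 higher, beside 21.3% of all genes lower and 2067 of 11433 higher. BBC3, the BH3-only protein PUMA, was lower on that scale (-0.44, adjusted p = 0.00277), and BAX (-0.12, adjusted p = 0.466), BCL2L2 (-0.12, adjusted p = 0.287) and BAK1 (0.08, adjusted p = 0.492) did not pass.

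The genes most like EGR1, NR4A1 and MCL1 were found by Pearson's r over the libraries of a model, on log2 rescaled values centred on each library's median. These are descriptions, and the points share time groups and library depth. Centring lifts low genes at 48 h in BE(2)-C cells, because the added 1 FPKM shrinks their shift, so likeness there may reflect level. Unnormalised group means of AMZ2P1, named below, ran only from 1.97 to 2.09 FPKM. The part of level in the likeness was not tested. In SHEP-21N cells (20 libraries) EGR1 was most like NUAK2 (r = 0.918), DUSP1 (0.910) and CCDC130 (0.906). DUSP1, an immediate early phosphatase of MAP kinases, averaged 14.1 ± 0.725 FPKM unnormalised at 8 h, 33.9 ± 1.33 at 16 h and 13.3 ± 0.618 at 24 h, with its highest mean at 16 h. NR4A1 was most like RLTPR (0.971), AEN (0.969) and NOP56 (0.967). NOP56, a box C/D snoRNP protein of ribosomal RNA processing, averaged 168 ± 7.54 FPKM unnormalised at 0 h, 130.3 ± 1.62 at 6 h and 93.2 ± 0.876 at 24 h. MCL1 was most like ZWINT (0.911), ARF6 (0.903) and SKA1 (0.893). In BE(2)-C cells (18 libraries) EGR1 was most like ELL (0.910), GOLPH3L (0.908) and SEMA4B (0.902), NR4A1 like SERTAD1 (0.954), NPB (0.942) and AMZ2P1 (0.938), and MCL1 like YWHAZ (0.950), DENR (0.942) and PPP1CC (0.932). ELL, an RNA polymerase II elongation factor, averaged 4.44 ± 0.197 FPKM unnormalised without doxycycline, 2.50 ± 0.105 at 24 h and 2.22 ± 0.139 at 48 h.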

How the data were processed

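Polyadenylated RNA was sequenced from stranded libraries of both models, with ERCC spike-ins added at lysis and cell number determined beforehand, per the labels' protocols. Per the submitters' processing notes, HISAT, Cufflinks 2.0.0 and hg19 were used. Per gene, the files deposited by the authors hold FPKM in an unnormalised and a spike-in rescaled version, and the rescaling formula is not given in these sources. Depth per library is unknown, since FPKM carry no number of reads, and precision is judged by the spread between libraries. Of 23713 entries, 92 are spike-ins. From 49 samples listed, 11 (BE(2)-C with DMSO or JQ1) are not analysed here. Column names gave the group but not the sample, so library numbers only tell columns apart.

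Genes with a mean of 1 FPKM or more unnormalised were fitted on log2(FPKM + 1) in limma 3.58.1 (R 4.3.3; trend, 1 mean per time, all groups of a model together), with Benjamini-Hochberg adjustment over all tested genes, and tables and figures were made in Python 3.11.15 (pandas 2.3.3, matplotlib 3.10.9). Fold changes are on the log2(FPKM + 1) scale, which understates low genes. The fit was also run on simulated data in which each gene was drawn independently. Those data held no shifts shared by all genes of a library, so they could not test calls under such shifts. The models have separate tables and were not tested against each other. Members and lists were chosen with earlier results of these data known. The genes named were the 10 members, the 2 targeted genes, up to 4 per list with the smallest adjusted p at the latest time, and the 3 genes most like EGR1, NR4A1 and MCL1; a few list genes are not reported here. Lists were other immediate early genes, SRF partners and targets, EGR corepressors and targets with NR4A partners, ERK cascade members, MCL1 relatives and partners, and markers of adrenergic and mesenchymal neuroblastoma, blood, epithelial and glial cells. Alternatives were unnormalised values, centring on library medians, a pseudocount of 0.1, no minimum, a replicate block and leaving out each library; leaving out libraries on unnormalised values was chosen after the data were seen.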

Additional observations from a re-analysis of the deposited data

How the results depend on the processing

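Member values were recomputed under the alternatives, unnormalised values among them, and set against the main fit on rescaled FPKM. Of 2166 values, 2032 stayed on their side of the threshold (37 of them changed sign without being called in either fit). Another 76 lost a call and 48 gained one with the sign kept. The remaining 10 changed sign with a call in at least 1 of the 2 fits, and are counted as reversals. The 10 reversals were all at 48 h in BE(2)-C cells. There the rescaled median of all genes stood at -1.36 against no doxycycline and -1.16 against 24 h. Centring lifts low genes because the added 1 FPKM shrinks their shift. The part of these shifts in the reversals was not tested. Against no doxycycline NR4A1 stood at 0.19 unnormalised and 0.38 centred, IER3 at 0.53 centred and SRF at 0.012 unnormalised. Against 24 h EGR1 stood at 0.61 centred, NR4A1 at 0.26 unnormalised and 0.41 centred, IER3 at 0.92 centred, and SRF at 0.11 unnormalised and 0.075 centred. Of these, the centred values of EGR1, NR4A1 and IER3 passed as higher. The unnormalised values did not pass (limma, adjusted p from 0.153 to 0.872), nor did centred SRF. Centred on library medians, 4 members were called in SHEP-21N cells at 4 h, 4 at 8 h and 3 at 16 h. Of all 11867 genes, 3218, 5601 and 5594 were called at those times. In BE(2)-C cells centring gave 1 at 6 h, 2 at 12 h, 2 at 24 h and 5 at 48 h (NR4A1 and IER3 higher, 3 lower). Of all 11433 genes, 45, 290, 2037 and 5996 were called at those times. Centring gave 4 at 48 h against 24 h (EGR1, NR4A1 and IER3 higher, MCL1 lower), where 2632 genes were called. Unnormalised counts in SHEP-21N cells were 1 at 2 h, 4 at 4 h, 5 at 6 h, 5 at 8 h and 3 at 16 h. They were 5 at 16 h against 8 h. In BE(2)-C cells unnormalised counts were 1 at 6 h, 2 at 12 h, 3 at 24 h and 2 at 48 h. They were 0 at 48 h against 24 h and 3 in the F test. A pseudocount of 0.1 gave 1 call at 4 h (58 of 11867 genes) and no minimum 1 at 8 h (862 of 19003 genes) in SHEP-21N cells. Column numbers did not pair the libraries (mean correlation of deviations -0.02 and 0.01), and 3 of 20 and 8 of 18 libraries were most like their own number. With the replicate block 3 members were called at 24 h against 16 h in SHEP-21N cells (487 of 11867 genes). It gave 2 at 24 h in BE(2)-C cells (144 of 11433 genes), counts of other comparisons staying within 1.5 times. Leaving out 1 library gave, in SHEP-21N cells, 0 to 0 calls at 2 h, 0 to 1 at 4 h, 1 to 4 at 6 h, 0 to 3 at 8 h, 0 to 2 at 16 h, 3 to 6 at 24 h, 1 to 2 at 16 h against 8 h, 2 to 6 at 24 h against 16 h and 5 to 6 in the F test. In BE(2)-C cells it gave 0 to 0 at 3, 6 and 12 h and at 24 h against 12 h, 1 to 1 at 24 h, 6 to 6 at 48 h, 3 to 4 at 48 h against 24 h (NR4A1 lost without 1 library of 24 h or 1 of 2 of 48 h, adjusted p up to 0.106) and 4 to 6 in the F test. The EGR1 calls at 6 and 24 h and between 8, 16 and 24 h in SHEP-21N cells were lost in none of these fits.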
